A study of Mus musculus with 9 samples.

Results

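The CTCF peaks described here lie at 8 marker genes of the glial cells of the brain, 4 of astrocytes (*Gfap*, *Aqp4*, *Aldh1l1* and *S100b*) and 4 of the oligodendrocyte lineage (*Mbp*, *Mog*, *Sox10* and *Olig1*). A peak was counted for a gene when it overlapped the gene body in GENCODE M21 (mouse genome GRCm38) or the 10 kb on either side, which gave 40 of the 225769 merged CTCF peaks, 24 at the astrocyte genes and 16 at the oligodendrocyte genes. CTCF was mapped by ChIP-seq, in which DNA bound by the protein is pulled down with an antibody and sequenced, in primary female neural stem cells (NSCs) grown from the cortices of C57Bl/6 mouse embryos at E14.5. The control was 3 cell lines homozygous for a GFP-tagged *Smchd1* allele (*Smchd1* GFP/GFP). The point mutant was 3 lines homozygous for the MommeD43 mutation, made by CRISPR on that tagged allele (MommeD43-GFP/MommeD43-GFP), so control and point mutant shared the GFP tag. The null was 2 *Smchd1* del/del lines, made in culture from floxed cells with a Cre retrovirus carrying puromycin resistance and drug selection. For the null the labels name no tag, so loss of *Smchd1*, absence of the tag and the Cre treatment cannot be told apart. Each of the 8 ChIP libraries came from an independent line kept for under 10 passages, and 1 input library, which has no column in the table, came from a control line. The table gives 1 value per peak and genotype, namely the log2 of reads per M library reads, averaged by the authors over that genotype's libraries (called the level below). Because no SD or n stands behind these pooled means, no difference could be set against the spread between lines and no test was made. The ± given with a difference is the SE expected from the counting of reads alone.

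CTCF is a zinc finger protein that binds a long, GC-rich motif, halts cohesin at loop anchors and separates neighbouring chromatin domains. SMCHD1 is a non-canonical SMC protein that silences genes on the inactive X chromosome and at imprinted and clustered autosomal loci. Astrocytes support synapses, buffer ions and water and supply neurons with metabolites, whereas oligodendrocytes wrap axons in myelin, and both arise from neural stem cells after these have made neurons. All 8 genes are autosomal. CTCF occupancy does not measure transcription, so these levels are no check that the cultures were stem cells, nor a sign that a gene was on or off.

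A core CTCF motif lay in 6 of the 40 peaks (15.0%), compared with 3.79% of all peaks. The core motif is the 12-letter centre of the CTCF consensus with its usual alternatives at 4 positions, searched on both strands. The 6 were *Gfap* peak 4, *Aldh1l1* peaks 2, 12 and 16, and *Mbp* peaks 7 and 9, with peaks numbered by position along the chromosome. The matches at *Mbp*, whose tallest peak is peak 7, are not shown. Those at *Gfap* and *Aldh1l1*, which include the tallest peak of each gene, are shown. Each is given 5′ to 3′ on the strand of the match, with the motif in capitals and 40 bases on either side, from GRCm38:
Gfap peak 4, chr11:102900948-102901039, forward strand: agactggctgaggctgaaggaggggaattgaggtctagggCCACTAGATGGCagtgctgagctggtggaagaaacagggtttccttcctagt
Aldh1l1 peak 2, chr6:90515192-90515283, reverse strand: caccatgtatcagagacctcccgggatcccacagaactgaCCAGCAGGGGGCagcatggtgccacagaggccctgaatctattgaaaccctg
Aldh1l1 peak 12, chr6:90575509-90575600, reverse strand: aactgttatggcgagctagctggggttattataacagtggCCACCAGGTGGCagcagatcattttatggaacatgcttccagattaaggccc
Aldh1l1 peak 16, chr6:90607299-90607390, forward strand: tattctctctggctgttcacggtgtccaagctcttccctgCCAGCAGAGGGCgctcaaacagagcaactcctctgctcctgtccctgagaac
Aldh1l1 peak 16, chr6:90606708-90606799, reverse strand: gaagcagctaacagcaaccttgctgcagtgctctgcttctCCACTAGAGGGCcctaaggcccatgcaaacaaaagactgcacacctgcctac

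A relaxed form, which leaves 3 of the positions free and includes every core match, was searched as CCNNNAGAGGGC, CCNNNAGATGGC, CCNNNAGGGGGC and CCNNNAGGTGGC. It was found in 13 of the 40 peaks (32.5%) and in 17.0% of all peaks. Of the peaks with a relaxed match alone, *Sox10* peak 2, the peak nearest to a *Sox10* start, held a pair on opposite strands, which are shown in the same way:
Sox10 peak 2, chr15:79162972-79163063, forward strand: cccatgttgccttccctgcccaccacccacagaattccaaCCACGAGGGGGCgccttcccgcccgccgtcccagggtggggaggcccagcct
Sox10 peak 2, chr15:79162607-79162698, reverse strand: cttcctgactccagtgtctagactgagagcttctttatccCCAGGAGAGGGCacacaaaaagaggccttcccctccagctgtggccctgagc

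A match is a description of the sequence and not a measured binding site. RefSeq promoter sequences (GRCm38) were matched for *Gfap*, *Aldh1l1*, *S100b* and *Mog*. None of these 4 held a core or relaxed match. A core match was found in 0.557% and a relaxed match in 3.36% of all 32851 RefSeq promoters. At these shares, finding none in 4 does not set these promoters apart.

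The peaks at the glial genes were long and tall for this table. Their median length was 1950 bp, compared with 750 bp for all peaks, and their median level was 1.23 log2 reads per M reads, compared with -0.53. Of the 40, 37 stood at or above the median level of all peaks, 15 in the top 10% and 4 in the top 1%. Level rose with length, and the values are not divided by it. After division by length, the median log2 level per kb was 0.67 for all peaks of 3 kb or more and -0.05 for all shorter ones. For the glial gene peaks it was 0.92 and 0.15. Against all peaks within 10% of their own length, 29 of the 40 were above the median. A peak of 3 kb or more was found 14 times, and 6 of these 14 (42.9%) held a core motif, compared with 24.3% of all peaks of 3 kb or more. None of the 26 shorter peaks held one, and 2.27% of all shorter peaks did. The median GC content was 50.3%, compared with 47.8% for all peaks. The median length was 1800 bp at the astrocyte and 2250 bp at the oligodendrocyte genes, and the median level 1.05 and 1.46.

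**Figure D1:**
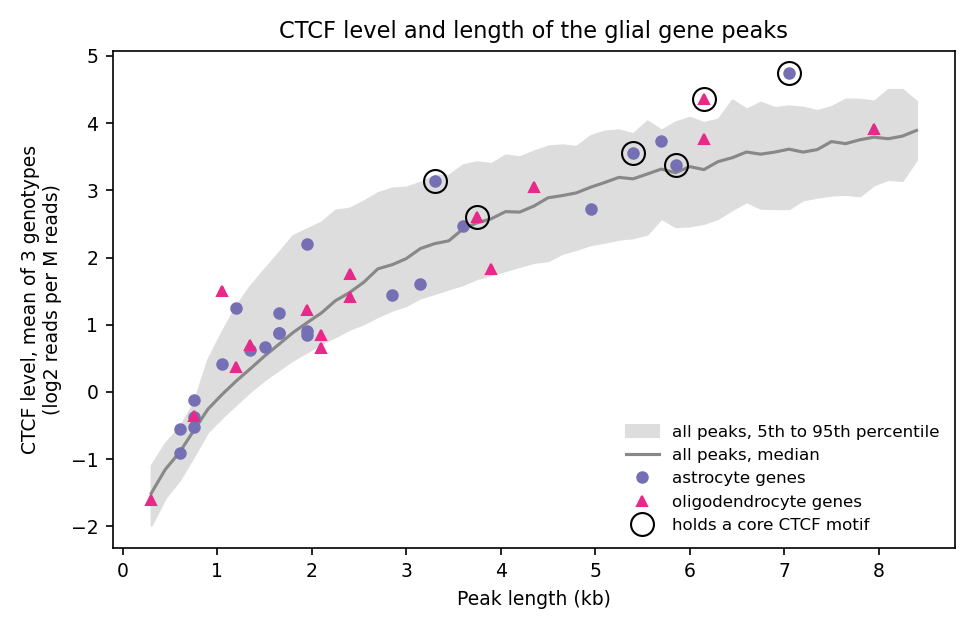
CTCF level (mean of the 3 genotypes, log2 reads per M reads) against peak length (kb) for the 40 glial gene peaks, with the median and the 5th to 95th percentile of all peaks of each length in grey. The 6 peaks with a core CTCF motif, circled, are all 3 kb or longer, and *Aldh1l1* peak 16 stands at 4.74.

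Genes can be compared by peaks per length of window, the window being the gene with its 10 kb flanks. *Aldh1l1* carried 11.96 peaks per 100 kb of window, *Gfap* 11.91, *S100b* 10.99, *Mbp* 8.43, *Sox10* 6.59, *Mog* 6.12, *Olig1* 4.51 and *Aqp4* 2.41. Summed over peaks on the linear scale, control CTCF per kb of window was 0.587 reads per M at *Aldh1l1*, 0.578 at *Gfap*, 0.577 at *Sox10*, 0.514 at *Mbp* and 0.513 at *S100b*. The windows of these 5 genes thus lay close together. At *Sox10* and *Aldh1l1* the tallest peak in the sum lay past the end of the gene, over a neighbouring gene. The value was lower at *Olig1* (0.131), *Aqp4* (0.0422) and *Mog* (0.0328). Sequencing was deep enough to separate the 3 low genes from the other 5 by counting error. Over the 3 control libraries together, about 134 reads lay behind the sum at *Mog* and 9812 at *Aldh1l1*.

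Of the 40 peaks, 16 (40%) lay within 1 kb of an annotated transcript start of any gene, coding or not, compared with 12.9% of all peaks. The 40 were chosen for lying in or within 10 kb of a gene, which by itself favours nearness to a start. Among peaks of 3 kb or more the share was 50% at the glial genes and 38.8% for all peaks. Among shorter ones it was 34.6% and 11.02%. A peak lay within 1 kb of a protein-coding transcript start at *S100b*, *Olig1*, *Aldh1l1* and *Sox10*, 4 of the 8 genes. At *S100b* and *Olig1* the peak covered the start, at *Aldh1l1* the gap was 0.439 kb and at *Sox10* 0.924 kb. At the others the nearest peak stood 1.60 kb (*Aqp4*), 2.75 kb (*Mbp*), 2.83 kb (*Gfap*) and 12.9 kb (*Mog*) from any coding start. *Gfap* peak 4, the *Aqp4* peak and *Mbp* peak 7 lay at starts of non-coding transcripts of these genes.

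**Figure D2:**
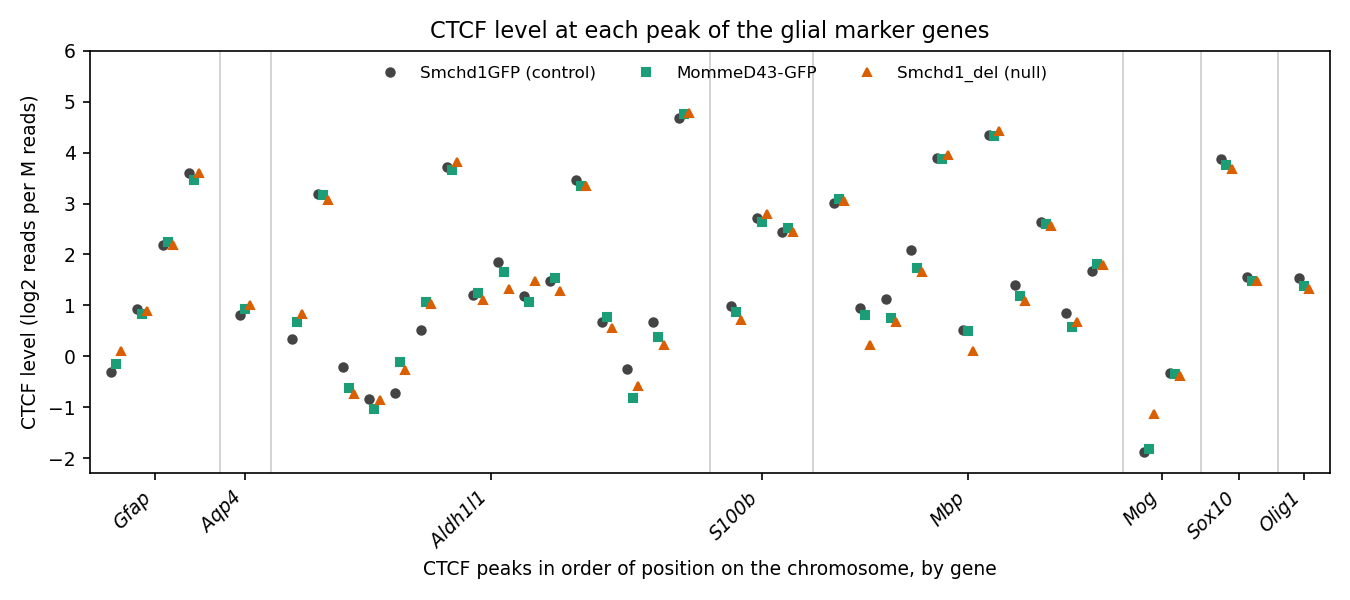
CTCF level (log2 reads per M reads) of each of the 40 peaks in control (circles), MommeD43-GFP (squares) and *Smchd1* del/del (triangles) NSCs, in order of position within each gene; each point is a pooled mean made by the authors. Levels run from -1.87 at *Mog* peak 1 in control to 4.78 at *Aldh1l1* peak 16 in the null, and the 3 genotypes lie close together at the tall peaks.

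MommeD43 was found through altered silencing of a transgene, and CTCF levels in the point mutant and in the null were each compared with control to ask how a changed or missing SMCHD1 bears on CTCF occupancy. No glial gene peak was 2-fold apart in any comparison. In MommeD43-GFP NSCs, 0 of 40 stood at least 2-fold above control (2.08% of all peaks did) and 0 at least 2-fold lower (0.718% of all peaks). In *Smchd1* del/del NSCs, 0 were at least 2-fold higher (3.31% of all peaks) and 0 at least 2-fold lower (1.85%). Between the mutants, 0 were 2-fold or more above the null in MommeD43-GFP (1.26%) and 0 below it by as much (1.08%). At these background shares only about 1 peak of 40 would be called, so a count of 0 does not set these genes apart.

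At 1.5-fold, 1 of the 40 peaks was higher in MommeD43-GFP NSCs (8.64% of all peaks) and 0 were lower (5.84%). That peak was *Aldh1l1* peak 5. In the null, 1 was higher (10.7%), *Mog* peak 1, and 1 lower (10.3%), *Mbp* peak 2. These same peaks made up the 1.5-fold counts between the mutants, where *Mbp* peak 2 was the higher in MommeD43-GFP (1 of 40, with 7.93% of all peaks) and *Mog* peak 1 lower (1 of 40, with 6.13%). All of these counts are below the background shares, which include many weaker peaks. A pseudocount of 1 read per M took every one of them to 0, and centring among peaks of like GC content ended the call at *Aldh1l1* peak 5. The call of *Mbp* peak 2 between the mutants was lost under every other scaling tried, and quantile normalization gave 2 lower peaks in the null. Among all peaks at or above the median level, 3.61% were 1.5-fold higher and 2.18% lower in MommeD43-GFP, and 6.72% were higher and 5.72% lower in the null.

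The 95% interval that counting error alone gives each difference lay wholly above 0 at 4 peaks in MommeD43-GFP against control (17.1% of all peaks) and wholly below 0 at 10 (15.2%). In the null it lay above 0 at 7 (17.5%) and below 0 at 11 (18.4%). For MommeD43-GFP against the null it lay above 0 at 4 (15.1%) and below 0 at 6 (13.9%). As shares of the 40, these counts were 10% and 25%, 17.5% and 27.5%, and 10% and 15%. In the same order, the shares among all peaks at or above the median level were 18.1% and 16.9%, 19.7% and 21.2%, and 16.7% and 16.3%. These intervals leave out the spread between lines and are therefore too narrow as a test of genotype. Both mutant comparisons use the same control value and the last uses both mutants, so they are not independent of each other.

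The median difference over the 40 peaks was small. It was -0.05 for MommeD43-GFP against control (all peaks 0.01), -0.07 for the null against control (all peaks -0.04) and 0.04 for MommeD43-GFP against the null (all peaks 0.03). Of the 40 differences, 14 were above and 26 below 0 in MommeD43-GFP, and likewise 14 above and 26 below in the null. Centring the differences among peaks of like GC content turned both splits to 23 above and 17 below, so no direction can be given for the glial genes together. The SD of the differences was 0.227 in MommeD43-GFP and 0.312 in the null, compared with 0.134 and 0.147 expected from counting, and with 0.308 and 0.399 among all peaks at or above the median level.

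**Figure D3:**
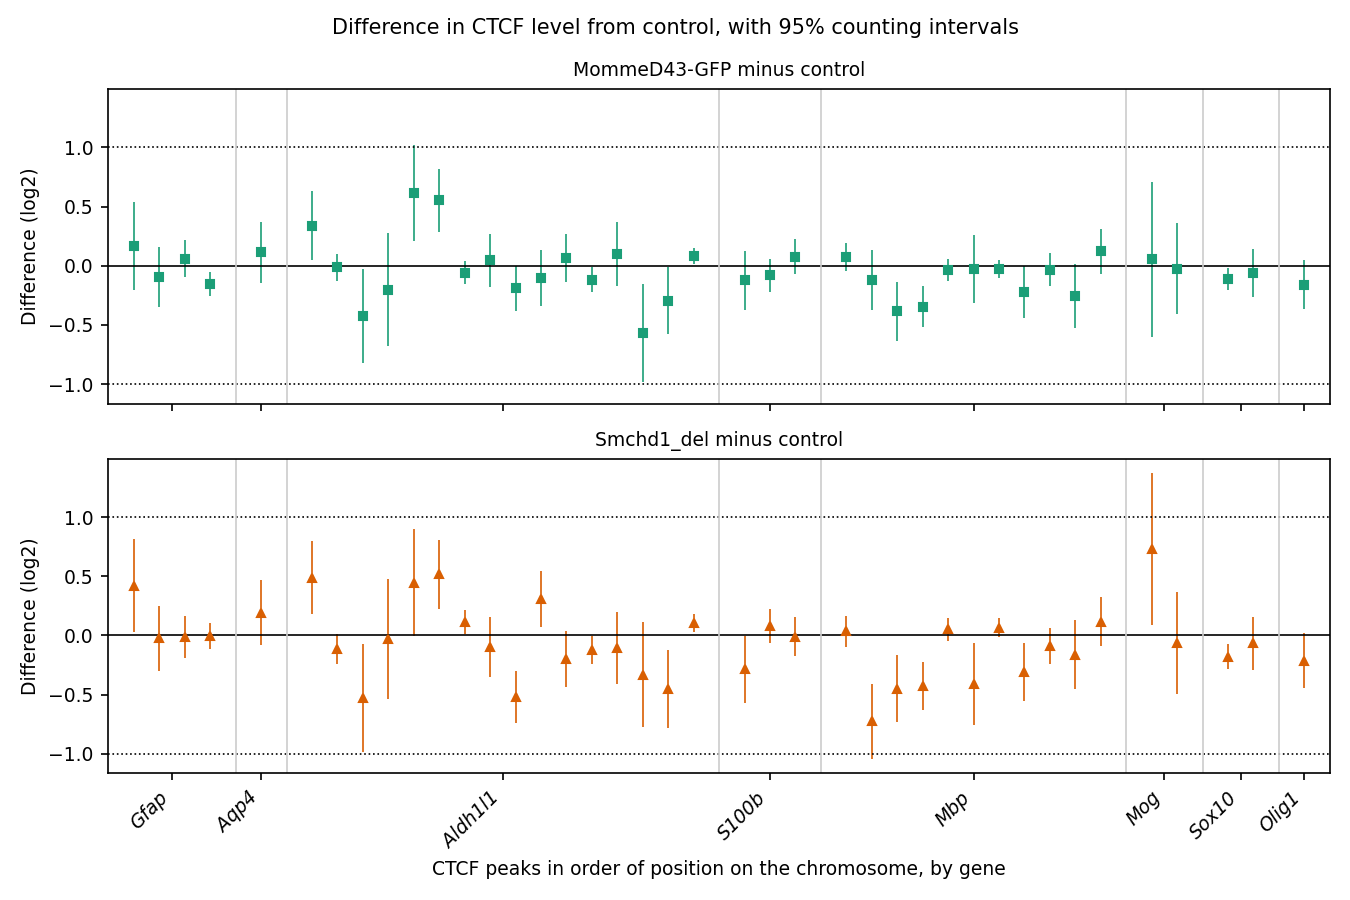
Difference in CTCF level from control (log2) at each of the 40 peaks for MommeD43-GFP (upper panel) and *Smchd1* del/del (lower panel), with bars for the 95% counting interval and dotted lines at 2-fold. No point reaches a dotted line, and the widest bars belong to *Mog* peak 1, the peak with the fewest reads.

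Long peaks varied less than short ones. Among the 14 peaks of 3 kb or more the SD of the difference was 0.116 in MommeD43-GFP and 0.193 in the null, and among the 26 shorter peaks it was 0.270 and 0.364. The same held for all peaks, at 0.168 and 0.265 for the long and 0.441 and 0.524 for the short. At the 6 peaks with a core motif the difference from control ranged from -0.15 to 0.09 in MommeD43-GFP and from -0.12 to 0.11 in the null. Counting error is smaller at tall peaks, and its part in this narrowing was not tested.

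*Gfap*, which encodes the intermediate filament of astrocytes, had 4 peaks (gene at chromosome 11: 102887336–102900912, reverse strand). The tallest, peak 4 (chr11:102900151-102905550), spans the far upstream end of the annotated gene and reaches *Kif18b*. It carries the core match shown above. Its level was 3.60 in control, 3.45 in the point mutant and 3.60 in the null. The point mutant was thus slightly below both others, by 0.15 ± 0.05 against control, while the null was at control. Peak 3 (chr11:102892351-102894300), over coding exons and introns, stood at 2.19, 2.25 and 2.18 in the same order, with no difference outside counting error. The downstream peaks 1 and 2 were weaker. Peak 1, which overlaps *Eftud2*, was at -0.31 in control, -0.14 in the point mutant and 0.11 in the null, the null being 0.42 ± 0.20 higher than control. Summed over the gene, the log2 ratio to control was -0.08 ± 0.04 in MommeD43-GFP and 0.01 ± 0.04 in the null.

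*Aldh1l1*, the folate enzyme used as a marker of most astrocytes, had 16 peaks (chromosome 6: 90486427–90600203, forward strand) and showed both the tallest peak and the widest spread of differences among the astrocyte genes. Peak 16 (chr6:90604801-90611850), 4.60 kb past the end of the gene and over *Slc41a3*, holds a pair of core matches on opposite strands. It stood at 4.68 in control, 4.76 in the point mutant and 4.78 in the null, within the top 1% of all peaks and also tall for its length (99.3rd percentile among peaks of like length). Both mutants were a little above control there, by 0.09 ± 0.03 and 0.11 ± 0.04. Among peaks of like GC content these differences were larger, at 0.15 and 0.23. The other core motif peaks, 2 and 12, were at 3.19 and 3.46 in control, 3.17 and 3.34 in MommeD43-GFP, and 3.07 and 3.34 in the null. Peak 12 was below control in each mutant by 0.12, about 2 times its counting SE, but among peaks of like GC content its differences were 0.01 and 0.04.

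Weaker peaks within *Aldh1l1* differed from control in both directions. The 3 protein-coding starts of this gene lie 64.4 kb past its first annotated start. Peaks 5 and 6 lie upstream of these coding starts, in the part of the annotated gene before them. Peak 5 (chr6:90526201-90526950), in an intron, was at -0.72 in control, -0.11 in the point mutant and -0.27 in the null. Control was the lowest of the 3, and the difference of 0.61 ± 0.21 (1.53-fold) was the highest of the 40 in MommeD43-GFP. Peak 6 (chr6:90532351-90534000), also intronic, rested on more reads and stood at 0.52, 1.07 and 1.04. Both mutants were again above control, by 0.55 ± 0.14 and 0.52 ± 0.15. In the opposite direction, peak 14 (chr6:90590701-90591300) was at -0.25 in control, -0.82 in the point mutant and -0.59 in the null. Its difference of -0.57 ± 0.21 was the lowest of the 40 in MommeD43-GFP. Peak 9 (chr6:90555901-90559050), over coding exons, was at 1.84, 1.65 and 1.32, with control the highest and a null difference of -0.52 ± 0.11. The GC content of peaks 5 and 6 was 41.1% and 45.6%, below the median of the 40, and that of peaks 9 and 14 was 52.8% and 52.5%, above it. Centring among peaks of like GC content left MommeD43-GFP differences of 0.38, 0.47 and -0.47 at peaks 5, 6 and 14, and a null difference of -0.36 at peak 9.

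The start-proximal peak 8 of *Aldh1l1* (chr6:90548701-90550350) stood at 1.20 in control, 1.24 in the point mutant and 1.10 in the null. These did not differ outside counting error. Over the whole gene, 7 peaks were above and 9 below control in MommeD43-GFP (median -0.04), and 6 above and 10 below in the null (median -0.10, or 0.01 among peaks of like GC content). The summed log2 ratio, in which the tall peaks weigh most, was 0.00 ± 0.02 and 0.01 ± 0.02. Between the mutants, peak 9 was 0.33 ± 0.11 higher and peak 10 0.41 ± 0.12 lower in MommeD43-GFP.

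*S100b*, a calcium-binding protein secreted by astrocytes, had 3 peaks (chromosome 10: 76253853–76261159, forward strand). Peak 1 (chr10:76252651-76254600) covered the start and stood at 0.99 in control, 0.87 in the point mutant and 0.71 in the null. The null was 0.29 ± 0.15 lower than control, close to the edge of its counting interval. The tallest peak, peak 2 (chr10:76257901-76262850), at the end of the gene and over *Dip2a*, was at 2.72, 2.63 and 2.80. Here the point mutant was the lowest and the null the highest, with 0.16 ± 0.07 between them. Summed over the gene, the log2 ratio to control was -0.02 ± 0.05 in MommeD43-GFP and 0.00 ± 0.05 in the null.

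*Aqp4*, the water channel of astrocyte endfeet, had a single peak (chr18:15399451-15401400) within the gene, at a non-coding transcript start. Its level was 0.81 in control, 0.92 in the point mutant and 1.001 in the null. Control was again the lowest, by 0.11 ± 0.13 and 0.19 ± 0.14, which is within counting error in each case.

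*Sox10*, the transcription factor that drives oligodendrocyte identity, had 2 peaks (chromosome 15: 79154908–79165240, reverse strand). Peak 1 (chr15:79145551-79151700) lay 3.21 kb past the end of the gene, over *Polr2f*. It was at 3.87 in control, 3.76 in the point mutant and 3.69 in the null, with control the highest. The differences were -0.11 ± 0.05 and -0.18 ± 0.05. Peak 2 (chr15:79162501-79163550), next to the start and with the relaxed matches shown above, gave 1.55 in control, 1.49 with MommeD43-GFP, and a null difference of -0.07 ± 0.11. It was tall for its length of 1.05 kb (98.6th percentile among peaks of like length) and, at 61.6%, the most GC-rich of the 40. Summed over both peaks, the log2 ratio was -0.10 ± 0.04 in MommeD43-GFP and -0.16 ± 0.05 in the null. Among peaks of like GC content, however, the differences came to -0.01 and -0.02 at peak 1 and to 0.07 and 0.09 at peak 2.

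*Olig1*, a basic helix-loop-helix factor of oligodendrocyte precursors, had 1 peak (chr16:91269601-91272000) that took in the whole gene. Its level was 1.54 in control, 1.38 in the point mutant and 1.33 in the null. Control was the highest, but the differences of -0.16 ± 0.11 and -0.22 ± 0.12 did not leave the counting interval. This peak too was GC-rich (60.5%), and its differences among peaks of like GC content were -0.03 and -0.06.

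*Mbp*, which encodes the basic protein that compacts myelin, had 11 peaks (chromosome 18: 82475146–82585637, forward strand), and most of its weaker peaks lay below control in the null. The tallest was peak 7 (chr18:82564051-82570200), with a core match, at 4.35 in control, 4.33 in the point mutant and 4.42 in the null. Peak 5 (chr18:82524601-82532550), the longest of the 40 at 7.95 kb, was at 3.90, 3.87 and 3.95. Peak 1, upstream of the gene, was at 3.01, 3.08 and 3.04, and peak 9, the other with a core match, at 2.64, 2.61 and 2.55. Before centring on GC content, none of these 4 tall peaks differed from control outside counting error. Among peaks of like GC content, the null was 0.14 ± 0.07 above control at peak 1. In the same way it was 0.17 ± 0.05 above at peak 5, 0.17 ± 0.04 at peak 7 and 0.07 ± 0.08 at peak 9. The MommeD43-GFP differences were then 0.12, 0.03, 0.02 and 0.07 at peaks 1, 5, 7 and 9.

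A run of 3 neighbouring intronic and exonic peaks further into *Mbp* stood lower. They lie between the coding starts at the first annotated start and the later ones, 79.3 to 79.4 kb from it. Peak 2 (chr18:82498051-82500150) was at 0.94 in control, 0.82 in the point mutant and 0.22 in the null. The null stood apart from the other genotypes, with a difference of -0.73 ± 0.16 (1.65-fold lower), the lowest of the 40, and with MommeD43-GFP 0.60 ± 0.16 above it. Peak 3 (chr18:82500601-82502700) was at 1.13, 0.74 and 0.68, and peak 4 (chr18:82506301-82510200) at 2.08, 1.74 and 1.66. At these 2 peaks both mutants were below control, by 0.38 ± 0.13 and 0.45 ± 0.14 at peak 3 and by 0.35 ± 0.09 and 0.43 ± 0.10 at peak 4. All 3 were weak for their length (4.83rd, 20.0th and 11.2th percentile). Among peaks of like GC content the null differences were -0.62, -0.42 and -0.31.

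Further along, peak 6 was at 0.52 in control, 0.49 in the point mutant and 0.11 in the null, and peak 8 at 1.40, 1.18 and 1.09. Over the 6 *Mbp* peaks shorter than 3 kb the median null difference was -0.36, and over the 5 longer ones it was 0.03. In MommeD43-GFP these medians were -0.17 and -0.03. Summed over the gene, the tall peaks dominated, and the log2 ratio was -0.05 ± 0.02 in MommeD43-GFP and -0.04 ± 0.02 in the null.

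**Figure D4:**
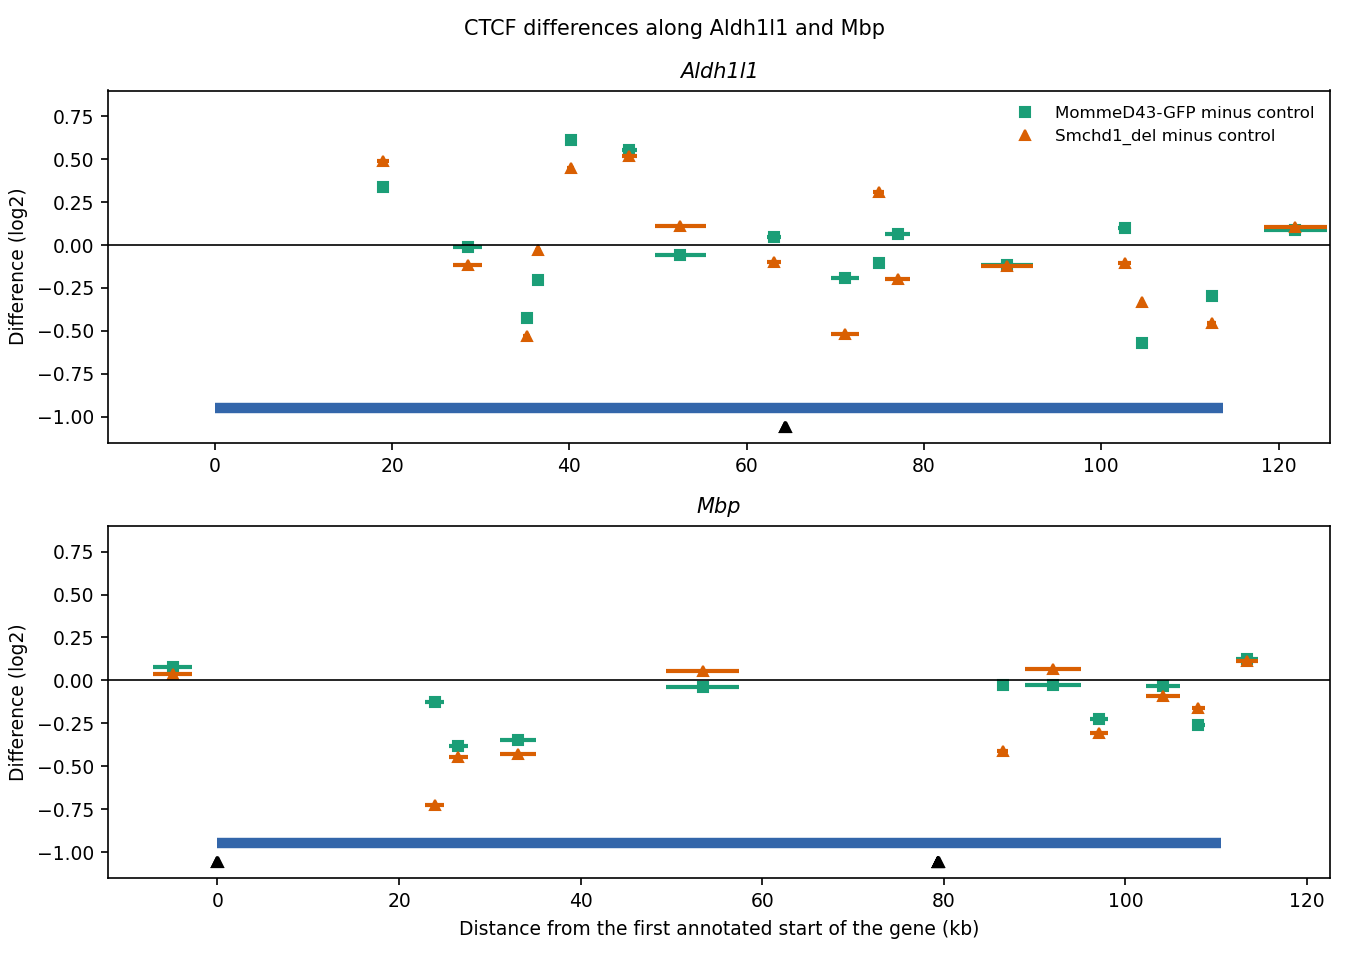
Difference in CTCF level from control (log2) along *Aldh1l1* and *Mbp*, against distance from the first annotated start (kb); horizontal strokes give the extent of each peak, the blue bar the gene and black triangles the protein-coding transcript starts. At *Mbp* the lowest null value, -0.73, belongs to peak 2 within the gene, and the long peaks 5 and 7 lie near 0.

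*Mog*, a surface glycoprotein of myelin, had 2 weak peaks (gene at chromosome 17: 37010743–37023398, reverse strand), both past the end of the gene and over *Zfp57*, a zinc finger gene of imprint maintenance. Peak 1 (chr17:37008001-37008300), the weakest and shortest of the 40, was at -1.87 in control, -1.82 in the point mutant and -1.14 in the null. The null was the highest, by 0.73 ± 0.33 (1.66-fold), but with 11.4 reads per library in control the 95% counting interval ran from 0.09 to 1.37. Peak 2 (chr17:37009501-37010250) was at -0.32, -0.35 and -0.39, without a difference outside counting error. No peak was called within the *Mog* gene itself.

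Other genes of the same and related cell types gave medians of similar size. At 14 other astrocyte genes (238 peaks) the median difference was 0.06 in each mutant, with 3 peaks at least 2-fold higher and 1 lower in MommeD43-GFP (2.08% and 0.718% of all peaks), and 8 higher and 1 lower in the null (3.31% and 1.85% of all peaks). By gene, the MommeD43-GFP median ran from -0.20 at *Glul*, which makes glutamine from glutamate, to 0.37 at *Aldoc*, a glycolytic aldolase, and the null median from -0.18 at *Glul* to 0.39 at *Gja1*, the astrocyte gap junction protein connexin 43. At 18 other genes of the oligodendrocyte lineage (122 peaks) it was -0.08 in MommeD43-GFP and -0.03 in the null, with 0 peaks 2-fold apart in MommeD43-GFP and 1 higher and 1 lower in the null, to be read against the same background shares. Here the gene medians ran from -0.30 (*Ermn*) to 0.11 (*Opalin*) in MommeD43-GFP and from -0.49 (*Gpr17*) to 0.21 (*Mag*) in the null.

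Neuronal genes (8 genes, 128 peaks) had median differences of -0.05 and -0.04, with 2 peaks at least 2-fold higher (2.08% of all peaks) and 0 lower (0.718%) in MommeD43-GFP and 2 higher (3.31%) and 1 lower (1.85%) in the null. By gene, the medians ran from -0.12 (*Rbfox3*) to 0.33 (*Snap25*) in MommeD43-GFP and from -0.09 (*Syt1*) to 0.27 (*Dcx*, which is X-linked) in the null. Genes of neural stem cells (8 genes, 42 peaks) had the lowest medians of these lists, -0.13 in MommeD43-GFP and -0.09 in the null, with 0 peaks 2-fold apart in MommeD43-GFP and 0 higher (3.31% of all peaks) and 2 lower (1.85%) in the null. Their gene medians ran from -0.20 (*Prom1*) to 0.20 (*Vim*) in MommeD43-GFP, and in the null from -0.48 at *Pax6*, a transcription factor of cortical progenitors, to 0.38 at *Vim*, the filament protein vimentin. Between MommeD43-GFP and the null, the list medians were -0.03, -0.03, 0.05 and 0.01 for the other astrocyte, other oligodendrocyte, neuronal and stem cell genes. In the same order, the gene medians ran from -0.37 (*Gja1*) to 0.11 (*Aldoc*), from -0.50 (*Ermn*) to 0.45 (*Gpr17*), from -0.25 (*Dcx*) to 0.33 (*Snap25*) and from -0.18 (*Vim*) to 0.22 (*Hes1*). The values of these further lists were not centred on GC content, so their order under such centring is not known.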

How the data were processed

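CTCF ChIP-seq libraries were made by the authors from female NSCs, with 3 control, 3 MommeD43-GFP and 2 *Smchd1* del/del lines and 1 input. The submitters' processing notes name Trim Galore 0.4.4, cutadapt 2.9, FastQC 0.11.8, Bowtie2 2.3.4.1, SAMtools 1.7, R 4.2.0 and GRCm38. Per the methods, reads were extended by 180 bp and peaks were called per genotype in SeqMonk, then merged. Values were deposited on a log2 scale, as reads in a merged peak per M library reads; the authors averaged them within a genotype and left peak length uncorrected. The input has no column in the table, and no filter on low values was used.

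The lowest 40 values of each column were read as whole products of counts, with 0 entered as 0.9 (100% whole within 0.01). This gave geometric mean library sizes of 41.7, 49.2 and 50.0 M reads in control, MommeD43-GFP and the null, and a median of 103, 114 and 114 reads per library at a glial gene peak. Counting SEs and 95% intervals come from these reads and cover counting error only. Because columns are pooled, the branch of the design without a test was used. Level percentiles for length compare peaks within 10% of the same length. A reading with the peak midpoint in the window, other flanks, scalings, thresholds, a filter on level and a pseudocount were tried. The scripts were tested on simulated data. The genes, lists and alternatives were chosen with earlier results of these data known. The text names all 8 genes, their tallest, start-proximal, motif-bearing and most different peaks, and the extreme genes of each further list; *Aldh1l1* peaks 6, 9 and 10 and the weaker *Gfap*, *S100b* and *Mbp* peaks were named after their values were seen. Python 3.11.15 was used with pandas 2.3.3, numpy 2.4.6, matplotlib 3.10.9 and scipy 1.17.1.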

Additional observations from a re-analysis of the deposited data

How the results depend on the processing

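No paired analysis was possible because the table gives 1 pooled column per genotype. For the same reason leaving out a line, DESeq2 size factors and a replicate block were not run. Of the values recomputed for counts and medians over the 40 peaks, 74 stayed within counting error or 1.5 times of the reported value, 9 moved and 1 reversed. Many that stayed are counts that were 0 at 2-fold. A 4-fold threshold, no flank, the midpoint rule, the filter on level and the pseudocount could only give 0 again for these. Centring within 20 bins of GC content moved the MommeD43-GFP median from -0.05 to 0.023 and reversed the null median from -0.07 to 0.070, and at *Aldh1l1* it turned the null median from -0.10 to 0.012. Centring each column on its median brought the null median to -0.0059. The cause was not tested. A threshold of 1.5-fold gave 1 peak higher in MommeD43-GFP, 1 higher and 1 lower in the null, and 1 higher and 1 lower between the mutants, where 2-fold gave 0. Flanks of 50 kb (110 peaks) gave 1 peak at least 2-fold higher (3.31% of all peaks) and 1 lower (1.85%) in the null. Both counts are below these background shares. For single genes, 183 values stayed, 5 moved and 1 reversed. With no flank (9 peaks) the *Mbp* medians were -0.12 in MommeD43-GFP and -0.31 in the null, and the latter was -0.08 with 50 kb (24 peaks) and -0.03 after centring on GC content. At *Sox10* that centring gave 0.04 in the null. Depth limits the weak peaks: at the *Mog* peak with 11.4 reads per library in control, the counting SE of a difference was 0.33.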

Other observations

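The peaks 2-fold apart in the wider windows, named after their values were seen, lay 41.5 kb from *Aqp4* (chr18:15347101-15348000) and 40.8 kb from *Mbp* (chr18:82434001-82434300). Near *Aqp4* the level was -1.13 in control, -0.70 in the point mutant and 0.17 in the null, a null difference of 1.29 ± 0.23. Near *Mbp* it was -1.13, -1.54 and -2.45, a null difference of -1.31 ± 0.39. In both places MommeD43-GFP stood between control and the null. Neither has a value for single lines, so the spread between lines is unknown. In the wider windows, peaks 2-fold apart were no more frequent than among all peaks.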
